A study of Mus musculus with 6 samples.

Results

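Cytochrome P450 enzymes are haem proteins that add oxygen to drugs, steroids, bile acids, fatty acids and vitamins. The genes described here are all autosomal protein-coding mouse genes whose symbol is Cyp followed by a number, a letter and a number. By that rule there were 96 of 21418 autosomal protein-coding genes. They were divided into 15 Cyp2c, 9 Cyp2d, 9 Cyp3a and 6 Cyp4a genes, 37 other genes with a further P450 gene within 500 kb, and 20 genes that stand alone. Of the 96, 2 carry the suffix -ps in their symbol but are annotated as protein-coding, and Cyp2ab1 fell outside the rule because its symbol has 2 letters in the middle.

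The study followed transposons in mouse embryonic stem cells (ESCs) that lose DNA methylation when Dnmt1, the maintenance DNA methyltransferase, is deleted. Chromatin immunoprecipitation and sequencing measured H3K9me2, H3K27me3 and H3K9me3 in ESCs that lack Dicer, with Dnmt1 intact or deleted, in 1 library for each mark and genotype. The labels give both groups as strain E14, with the genotypes Dicer -/- and Dicer/Dnmt1 -/-. By the study's methods the parent cells were C57BL/6 ESCs with Dnmt1 flanked by loxP sites, grown in serum and LIF, so the strain in the methods differs from that in the labels. Dicer was removed with CRISPR/Cas9 and colonies were grown from single cells, and Dnmt1 was then removed by a Cre that tamoxifen switches on. Both groups lack Dicer, so no group here has normal small RNA processing, and no cells with Dicer are compared.

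Most P450 genes are known for their work in liver, adrenal gland, kidney, gut and brain, and are silent or weakly expressed in ESCs. H3K27me3 is placed by Polycomb complexes and in ESCs is known for covering the starts of developmental genes that are held off until later. H3K9me2 spreads broadly over silent chromatin, and H3K9me3 is concentrated on transposons and on some clusters of duplicated genes.

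Levels are given as reads observed over reads expected if a library were spread evenly over the genome, so that 1 is the genome mean. They were taken over the 2 kb tiles that overlap a gene. No input library was used, so differences between regions in mapping, copy number or base composition were not corrected for. The 96 genes overlapped 1362 tiles, of which 1358 had reads in at least 1 of the 6 libraries and were used. A change is the log2 ratio of the level in Dicer/Dnmt1 -/- cells over that in Dicer -/- cells. Since each mark was measured in 1 library per genotype, differences could not be tested, and each level and change has a 95% interval for counting error only, which leaves out differences between cultures and takes every PCR copy as a read of its own. Each level averages over all cells of a culture, so fewer cells with a mark and less mark per cell cannot be told apart.

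The deleted genes were looked at before the P450 genes. Over Dnmt1 the H3K9me2 level was 0.358 in Dicer -/- cells and 0.537 in Dicer/Dnmt1 -/- cells, and over Dicer1 it was 0.747 and 0.868. Reads of a repressive mark across a whole gene cannot tell an intact from a deleted allele, so they are no check of the genotypes. The cell type was checked with H3K27me3 at gene starts. None of 6 genes that are active in ESCs (Pou5f1, Nanog, Sox2, Esrrb, Zfp42 and Klf4) had at least 2 times the genome mean in the tile of the start in both genotypes, and neither did any of 4 genes used by every cell. Esrrb came close, at 1.96 in Dicer -/- cells and 2.81 in Dicer/Dnmt1 -/- cells. All 6 lineage genes that are held off in ESCs (Hoxa9, Hoxd11, Pax6, Gata4, T and Neurog2) did. Their median H3K27me3 level over the gene was 3.74 in Dicer -/- cells and 3.27 in Dicer/Dnmt1 -/- cells, against 0.443 and 0.550 for the genes active in ESCs.

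P450 genes carried more of all 3 marks than a typical gene in both genotypes. Their median H3K9me2 level was 1.07 in Dicer -/- cells and 1.12 in Dicer/Dnmt1 -/- cells, against 0.751 and 0.842 for all autosomal protein-coding genes. Their median H3K27me3 level was 1.13 and 1.06, against 0.709 and 0.744. Their median H3K9me3 level was 1.11 and 1.09, against 0.780 and 0.797. The order was the same when genes above the genome mean were counted. For H3K9me2, 61 of 96 P450 genes were above it in Dicer -/- cells, where 33.3% of all genes were, and 57 in Dicer/Dnmt1 -/- cells, where 37.6% were. For H3K27me3 the counts were 57 against 39.2% and 53 against 39%, and for H3K9me3 they were 60 against 27.4% and 61 against 29.3%. Few P450 genes have a CpG-rich start, as given below. Among genes without one the H3K27me3 medians were close. They were 1.085 in Dicer -/- cells and 1.028 in Dicer/Dnmt1 -/- cells for P450 genes, against 1.026 and 1.021 for all such genes. P450 genes stayed higher for the other marks. The H3K9me2 medians were 1.087 and 1.133, against 0.9528 and 1.01. H3K9me3 was above the genome mean over 64.77% and 65.91% of such P450 genes, against 39.02% and 40.97%.

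Other large families of genes that are silent in ESCs had high levels too. Over 1106 olfactory receptor genes the median H3K9me2 level was 1.28 in Dicer -/- cells and 1.23 in Dicer/Dnmt1 -/- cells, with H3K27me3 at 0.977 and 0.967 and H3K9me3 at 1.06 and 1.05. Over 51 keratin genes the medians were 1.45 and 1.44 (H3K9me2), 2.48 and 2.27 (H3K27me3), and 1.19 and 1.26 (H3K9me3). High levels of these marks are not particular to P450 genes.

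**Figure D1:**
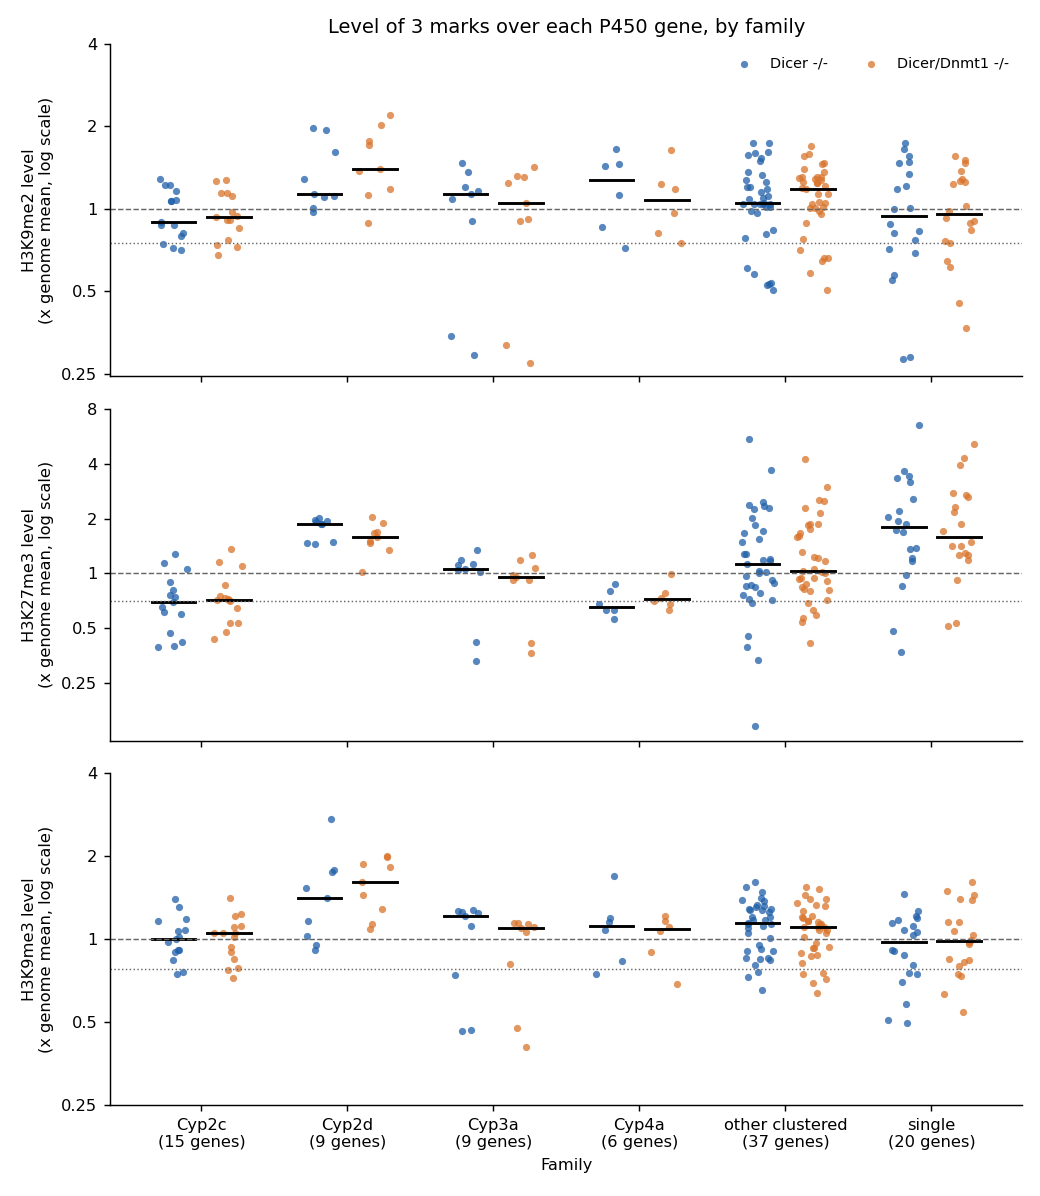
Level of each mark over each P450 gene (vertical axes, times the genome mean, log scale) by family, in Dicer -/- cells (blue) and Dicer/Dnmt1 -/- cells (orange), with 1 point per gene, bars at family medians, dashed lines at the genome mean and dotted lines at the median of all genes in Dicer -/- cells. The H3K27me3 level of all 9 Cyp2d genes lies above the genome mean and that of all 6 Cyp4a genes below it in both genotypes, and 2 Cyp3a genes lie far below the others for all 3 marks. Of all genes 39.2% and 39% lie above the genome mean for H3K27me3 in the 2 genotypes.

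The mark with the highest level differed between families. H3K27me3 was the highest of the 3 over 43 of 96 P450 genes in Dicer -/- cells, beside 35.9% of all genes, and over 39 in Dicer/Dnmt1 -/- cells, beside 35.7%, so the shares are near the background. Among the 20 genes that stand alone it was the highest over 16 and 15, and among the 6 Cyp4a genes over none. Across the 96 genes the levels of H3K9me2 and H3K9me3 went together (Spearman rho 0.62 in Dicer -/- cells and 0.57 in Dicer/Dnmt1 -/- cells), while those of H3K27me3 and H3K9me3 did so far less (0.06 and 0.19). The levels of H3K9me2 and H3K27me3 were in between (0.25 and 0.37). These correlations are across genes, which share libraries and in part sequence and are not independent replicates.

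H3K27me3 covered the start of 12 P450 genes at 2 times the genome mean or more in both genotypes, which is 12 of 96 beside 15.1% of all genes, so the share is near the background. They were spread unevenly over the families. The 20 genes that stand alone held 7 of them and the 37 other clustered genes 5, while no Cyp2c, Cyp2d, Cyp3a or Cyp4a gene was among them. In each library by itself 18 P450 genes passed in Dicer -/- cells, beside 20.6% of all genes, and 14 in Dicer/Dnmt1 -/- cells, beside 16.8%. Several genes were close to the threshold. Just inside, the lower of the 2 levels was 2.06 for Cyp46a1 and 2.12 for Cyp1a1, Cyp27a1 and Cyp4f14. Just outside, it was 1.91 for Cyp2d22 and 1.87 for Cyp2d26, Cyp2r1 and Cyp4f18. With a threshold of 3 times the genome mean the count was 6 instead of 12. No share of all genes was taken at that threshold.

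CpG content differs between P450 genes and other genes. A start was called CpG-rich where the 300 bases around it, from 250 before to 50 after, had at least 50% G and C and an observed over expected CpG ratio of at least 0.6. Of the P450 genes 8 (8.33%) had such a start, against 42.8% of all autosomal protein-coding genes: Cyp1b1, Cyp20a1, Cyp24a1, Cyp26a1, Cyp2r1, Cyp2u1, Cyp46a1 and Cyp4v3. The median CpG ratio was 0.156 for P450 genes and 0.544 for all genes. Among the 8 CpG-rich starts 3 had H3K27me3 in both genotypes (Cyp24a1, Cyp26a1 and Cyp46a1), beside 13.6% of all CpG-rich starts, and among the 88 others 9 did, beside 16.2%. The correlation across 96 genes between the CpG ratio and H3K27me3 in the tile of the start was weak, with a Spearman rho of 0.21 in Dicer -/- cells and 0.19 in Dicer/Dnmt1 -/- cells.

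The sequences around 6 starts show this range of CpG content. They are the 2 starts with the highest H3K27me3 in both genotypes (Cyp26a1 and Cyp24a1), a start with the mark and no CpG (Cyp4f14) with its unmarked neighbour (Cyp4f13), and 1 drug-metabolising gene from each of the unmarked Cyp3a and Cyp2c clusters (Cyp3a11 and Cyp2c29). Cyp4f13 was chosen for this comparison after its values were seen. Each CG, the site of DNA methylation that Dnmt1 maintains, is in capitals; CG reads the same on both strands. Of the 300-base windows of all autosomal protein-coding genes 95.1% hold at least 1 CG, with a median of 12, and of the P450 windows 92.7% do, with a median of 3. The windows are in build NCBIM37, each written 5′ to 3′ on the strand of its gene: Cyp26a1 at chr19:37772048-37772347 on the plus strand with 26 CG, Cyp24a1 at chr2:170322596-170322895 on the minus strand with 23 CG, Cyp4f14 at chr17:33053974-33054273 on the minus strand with 0 CG, Cyp4f13 at chr17:33084298-33084597 on the minus strand with 3 CG, Cyp3a11 at chr5:146691491-146691790 on the minus strand with 1 CG, and Cyp2c29 at chr19:39315191-39315490 on the plus strand with 1 CG.
Cyp26a1: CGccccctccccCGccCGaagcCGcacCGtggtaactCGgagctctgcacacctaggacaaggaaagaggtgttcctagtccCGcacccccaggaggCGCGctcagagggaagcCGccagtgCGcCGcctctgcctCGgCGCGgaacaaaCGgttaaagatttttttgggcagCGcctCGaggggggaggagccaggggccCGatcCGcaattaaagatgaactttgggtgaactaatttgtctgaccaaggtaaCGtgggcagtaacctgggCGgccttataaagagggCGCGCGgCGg
Cyp24a1: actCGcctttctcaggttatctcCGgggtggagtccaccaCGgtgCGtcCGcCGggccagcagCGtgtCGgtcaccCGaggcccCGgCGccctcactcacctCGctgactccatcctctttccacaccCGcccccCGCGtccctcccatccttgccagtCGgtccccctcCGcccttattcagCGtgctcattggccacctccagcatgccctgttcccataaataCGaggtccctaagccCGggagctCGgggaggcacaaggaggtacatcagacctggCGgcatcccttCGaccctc
Cyp4f14: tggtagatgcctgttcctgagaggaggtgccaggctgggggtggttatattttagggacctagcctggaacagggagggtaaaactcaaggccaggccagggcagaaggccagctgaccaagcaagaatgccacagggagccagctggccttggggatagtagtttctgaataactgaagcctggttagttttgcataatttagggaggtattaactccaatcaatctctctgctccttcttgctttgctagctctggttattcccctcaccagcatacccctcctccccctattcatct
Cyp4f13: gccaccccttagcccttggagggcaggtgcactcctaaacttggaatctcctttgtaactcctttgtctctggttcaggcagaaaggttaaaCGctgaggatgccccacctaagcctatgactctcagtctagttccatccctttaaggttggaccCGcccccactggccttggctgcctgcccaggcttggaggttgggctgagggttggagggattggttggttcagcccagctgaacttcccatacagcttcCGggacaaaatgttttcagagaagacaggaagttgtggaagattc
Cyp3a11: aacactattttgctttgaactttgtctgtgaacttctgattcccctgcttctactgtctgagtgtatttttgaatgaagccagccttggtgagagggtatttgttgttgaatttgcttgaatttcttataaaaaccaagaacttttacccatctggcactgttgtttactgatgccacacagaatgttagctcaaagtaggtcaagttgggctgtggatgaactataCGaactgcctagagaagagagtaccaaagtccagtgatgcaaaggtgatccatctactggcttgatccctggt
Cyp2c29: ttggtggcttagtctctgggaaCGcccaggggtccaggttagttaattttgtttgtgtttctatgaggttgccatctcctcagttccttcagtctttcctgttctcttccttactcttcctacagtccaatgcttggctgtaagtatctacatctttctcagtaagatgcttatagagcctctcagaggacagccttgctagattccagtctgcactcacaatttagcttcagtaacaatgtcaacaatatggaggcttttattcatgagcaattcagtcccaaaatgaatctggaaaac

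**Figure D2:**
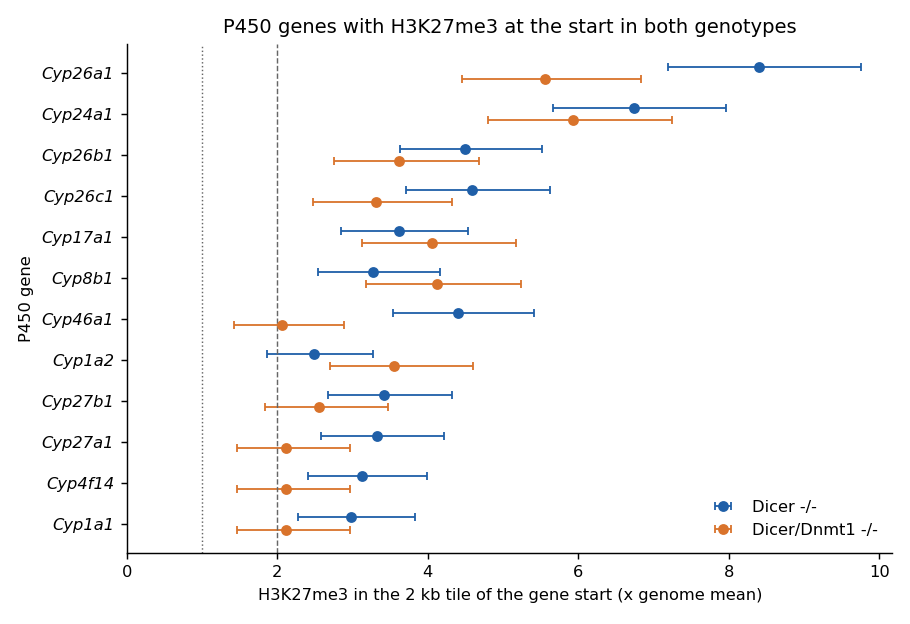
H3K27me3 in the 2 kb tile that holds the gene start (horizontal axis, times the genome mean) for the 12 P450 genes at 2 or more in both genotypes, in Dicer -/- cells (blue) and Dicer/Dnmt1 -/- cells (orange); bars are 95% intervals for counting error, and dotted and dashed lines stand at 1 and at 2. Cyp26a1 had 8.41 and 5.55, and 9 of the 12 genes were lower in Dicer/Dnmt1 -/- cells (8 within bins of GC content).

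The enzymes that break down retinoic acid, a signal that patterns the embryo and drives ESCs to differentiate, had the 3 highest H3K27me3 levels of the P450 genes in Dicer -/- cells. Over Cyp26b1 the level was 6.48 in Dicer -/- cells and 5.13 in Dicer/Dnmt1 -/- cells, over Cyp26a1 5.42 and 4.22, and over Cyp26c1 3.69 and 2.98. In Dicer/Dnmt1 -/- cells Cyp8b1 and Cyp24a1 were above Cyp26c1, and Cyp8b1 was level with Cyp26a1. All 3 Cyp26 genes were lower without Dnmt1, by an amount that depended on the scaling. The log2 change was -0.34 for Cyp26b1 (95% counting interval -0.45 to -0.22), -0.36 for Cyp26a1 (-0.62 to -0.11) and -0.31 for Cyp26c1 (-0.58 to -0.04). With libraries scaled within bins of the GC content of tiles it was -0.11, outside the interval, for Cyp26b1, -0.24 for Cyp26a1 and -0.17 for Cyp26c1. At the start of Cyp26a1, whose 300 bases hold 26 CpGs, the level was 8.41 and 5.55, a change of -0.60 (-0.98 to -0.22), or -0.34 within bins of GC content. The starts of Cyp26c1, at 4.59 and 3.31, and Cyp26b1, at 4.50 and 3.62, were also high in both libraries. H3K9me2 and H3K9me3 were below the genome mean over all 3 genes in all 4 libraries, with H3K9me2 between 0.53 and 0.76 and H3K9me3 between 0.72 and 0.84. Most genes were below it too. Of all genes 33.3% and 37.6% were above it for H3K9me2 in the 2 genotypes, and 27.4% and 29.3% for H3K9me3.

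Vitamin D is activated by Cyp2r1 and Cyp27b1 and inactivated by Cyp24a1, and 2 of the 3 genes had H3K27me3 at the start in both genotypes, beside 15.1% of all genes. Over Cyp24a1 the level was 3.64 in Dicer -/- cells and 3.91 in Dicer/Dnmt1 -/- cells (change 0.10, -0.07 to 0.28), and in the tile of its CpG-rich start it was 6.74 and 5.93. Over Cyp27b1 the level was 3.19 and 2.70, and at its start 3.42 and 2.56. Cyp2r1 had 2.03 and 1.70 over the gene (change -0.25, -0.51 to -0.004), and its start was just outside the threshold at 2.20 and 1.87. Cyp24a1 shares a tile with Pfdn4, so its level includes reads near that gene.

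All 6 genes of steroid hormone synthesis had H3K27me3 above the genome mean over the gene in both libraries, beside 39.2% of all genes in Dicer -/- cells and 39% in Dicer/Dnmt1 -/- cells. None of the 6 has a CpG-rich start, and of all genes without one 51.2% and 50.8% were above the mean. The role lists, that of vitamin D included, were chosen with earlier results of these data known. The median H3K27me3 level of the 6 genes was 2.30 in Dicer -/- cells and 2.23 in Dicer/Dnmt1 -/- cells, above the all-gene median in both. Over Cyp11a1, which makes pregnenolone from cholesterol, it was 2.45 and 2.52. Cyp17a1, needed to make androgens, had 2.57 and 2.64 over the gene and was the only 1 of the 6 that passed the start threshold in both genotypes, at 3.62 and 4.05. The adrenal genes Cyp11b1, at 2.27 and 1.86 over the gene, Cyp11b2, at 2.33 and 2.15, and Cyp21a1, at 2.20 and 2.31, were close to each other. Cyp19a1, the aromatase that makes oestrogens, had 1.88 and 1.87. Its other marks moved in opposite directions, with H3K9me2 of 1.56 and 1.26 (change -0.31, -0.43 to -0.18) and H3K9me3 of 1.27 and 1.45 (change 0.20, 0.07 to 0.33).

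Genes of bile acid and sterol metabolism differed from each other by mark. Cyp8b1, which makes the precursor of cholic acid, had the most H3K27me3, with 3.42 in Dicer -/- cells and 4.27 in Dicer/Dnmt1 -/- cells over the gene (change 0.32, -0.03 to 0.67) and 3.27 and 4.12 at the start. Cyp46a1, which turns over cholesterol in neurons, had 3.32 and 2.75 over the gene (change -0.27, -0.42 to -0.13, and -0.13 within bins of GC content) and 4.40 and 2.06 at the start. The change at the start of Cyp46a1, -1.10 with an interval of -1.72 to -0.51, was the furthest from 0 among the 12 marked starts, also within bins of GC content, where it was -0.84. Cyp27a1, a sterol hydroxylase of mitochondria, had 1.73 and 1.42 over the gene (change -0.29, -0.50 to -0.07) and 3.32 and 2.12 at the start. Cyp7a1, the rate-limiting enzyme of bile acid synthesis, had more H3K9me2 than H3K27me3 in Dicer -/- cells. Its H3K9me2 level was 1.74 and 1.37 (change -0.34, -0.70 to 0.02) and its H3K27me3 level 1.38 and 1.49. Cyp7b1, an oxysterol hydroxylase, had little H3K27me3 at 0.48 and 0.52, and Cyp39a1, which shares a tile with Slc25a27, was near the genome mean at 1.17 and 1.26.

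Among the genes that drugs and other foreign compounds induce, Cyp1a1 and Cyp1a2, controlled by the Ah receptor, had the most H3K27me3. Over Cyp1a1 the level was 2.36 in Dicer -/- cells and 2.28 in Dicer/Dnmt1 -/- cells, and over its neighbour Cyp1a2 2.30 and 2.48. Their starts had 2.98 and 2.12 for Cyp1a1 and 2.49 and 3.56 for Cyp1a2. Cyp1b1, with a CpG-rich start, had 1.68 and 1.26 over the gene (change -0.42, -0.79 to -0.05, and -0.28 within bins of GC content) and low H3K9me2 at 0.28 and 0.45. The genes induced through the receptors PXR and CAR, all in liver clusters, had less than Cyp1a1 and Cyp1a2. The H3K27me3 level was 1.28 and 1.31 over Cyp2b10, 1.06 and 1.19 over Cyp3a11 and 0.66 and 0.72 over Cyp2c29. H3K9me2 over Cyp2b10 was 1.01 and 1.31 (change 0.37, 0.10 to 0.63), and over Cyp3a11 it was 1.47 and 1.31. H3K9me3 over Cyp1a2 was 1.33 and 0.93, a change of -0.52 whose interval of -1.06 to 0.01 holds 0.

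The 4 listed genes for fatty acid oxidation in the Cyp4a and Cyp2j clusters had more H3K9me2 and H3K9me3 than H3K27me3. Over Cyp4a14, an omega-hydroxylase induced through PPAR alpha, H3K9me2 was 1.66 in Dicer -/- cells and 1.64 in Dicer/Dnmt1 -/- cells, and H3K27me3 was 0.87 and 1.00. Over Cyp4a10, of the same kind, H3K9me2 was 1.44 and 1.24 and H3K27me3 0.56 and 0.68. The arachidonic acid epoxygenase genes Cyp2j5 and Cyp2j6 had H3K27me3 below the genome mean in both libraries, at 0.84 and 0.80 and at 0.92 and 0.91. Their H3K9me3 was 1.48 and 1.16 over Cyp2j5 (change -0.35, -0.57 to -0.14) and 1.11 and 1.08 over Cyp2j6.

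The clusters, which hold tandem copies of genes for drug and fatty acid metabolism, differed in how much of each mark they carried. The 15 Cyp2c genes had the least H3K27me3 of the large families along with the Cyp4a genes, at 0.705 in Dicer -/- cells and 0.733 in Dicer/Dnmt1 -/- cells. H3K9me2 over them was 0.952 and 0.950 and H3K9me3 0.993 and 0.983. Within the Cyp2c cluster H3K27me3 was highest at 1 end and lowest in the middle. Cyp2c55, at 1.28 and 1.37, and Cyp2c65, at 1.14 and 1.15, lie at that end. The 4 genes in the middle had much less. Cyp2c40 had 0.39 and 0.44, Cyp2c67 0.42 and 0.53, Cyp2c68 0.47 and 0.48 and Cyp2c69 0.40 and 0.54. As given below, a large share of the sequence of Cyp2c40 also occurs in other P450 genes, and its part in the low level was not tested. These Cyp2c genes were picked after their values were seen.

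With reads summed over each family, the 9 Cyp2d genes carried the most of all 3 marks among the 4 large families. H3K9me2 was 1.31 in Dicer -/- cells and 1.44 in Dicer/Dnmt1 -/- cells, H3K27me3 1.78 and 1.62, and H3K9me3 1.39 and 1.51. By the median over genes the order for H3K9me2 in Dicer -/- cells was another, with 1.13 for Cyp2d and Cyp3a and 1.28 for Cyp4a. H3K9me3 over Cyp2d in Dicer -/- cells was also lower in tiles wholly inside a gene, as given below. All 9 Cyp2d genes were above the genome mean for H3K27me3 in both libraries, from 1.45 to 2.00 in Dicer -/- cells, beside 39.2% of all genes there and 39% in Dicer/Dnmt1 -/- cells. Among P450 genes with at least 100 reads, the highest H3K9me2 in Dicer -/- cells was over Cyp2d40, at 1.97 and 1.77, and Cyp2d9, at 1.95 and 2.03, ahead of Cyp11a1 at 1.75 and 1.59. In Dicer/Dnmt1 -/- cells Cyp2d37-ps was highest, at 2.20. The highest H3K9me3 in Dicer -/- cells was over Cyp2d12, at 2.73 and 2.01, Cyp2d37-ps, at 1.79 and 1.82, and Cyp2d34, at 1.75 and 1.99. The Cyp2d genes are short, with 2 to 6 tiles each, so their intervals are wide. They also have the highest share of G and C, 50.0% over their tiles against 38.6% for Cyp2c. The part of base composition in these levels was not tested.

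The Cyp3a genes, which include the main drug-metabolising enzymes of liver and gut, were close to the genome mean as a family. H3K9me2 was 1.02 in Dicer -/- cells and 0.998 in Dicer/Dnmt1 -/- cells, H3K27me3 0.998 and 0.924, and H3K9me3 1.03 and 0.958. Cyp3a41a and Cyp3a41b stood far below the other 7, and without them H3K9me2 was 1.19 and 1.16, H3K27me3 1.14 and 1.05, and H3K9me3 1.16 and 1.08. H3K9me2 over Cyp3a41a was 0.34 and 0.32 and over Cyp3a41b 0.29 and 0.27. H3K27me3 was 0.33 and 0.37 and 0.42 and 0.41, and H3K9me3 0.47 and 0.41 and 0.46 and 0.48. These 2 genes are near copies of each other. Of all stretches of 50 bases in Cyp3a41a 80.1% also occur in another P450 gene, and in Cyp3a41b 80.8% do. The next highest share was 42.9%, in Cyp2c40. Reads that map to several places have low mapping quality, and the study discarded reads with a quality under 20. Across the 96 genes the share of such stretches had a Spearman rho with the level of H3K27me3 of -0.47 in Dicer -/- cells and -0.53 in Dicer/Dnmt1 -/- cells, with H3K9me2 of -0.14 and -0.17, and with H3K9me3 of 0.02 and -0.04. Its part in the low levels was not tested.

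The 6 Cyp4a genes had H3K27me3 below the genome mean in both libraries, at 0.680 and 0.730 for the family. The highest of them in Dicer/Dnmt1 -/- cells was barely below it, at 0.998. Most genes are below the mean too, as 39.2% of all genes were above it in Dicer -/- cells and 39% in Dicer/Dnmt1 -/- cells. H3K9me2 was 1.09 in Dicer -/- cells and 0.999 in Dicer/Dnmt1 -/- cells, and H3K9me3 1.04 and 0.975. Cyp4a31 had the most H3K9me3 in Dicer -/- cells, at 1.70, and 1.11 in Dicer/Dnmt1 -/- cells. Its change of -0.61 (-0.95 to -0.28) was the furthest below 0 for that mark among P450 genes with at least 100 reads.

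**Figure D3:**
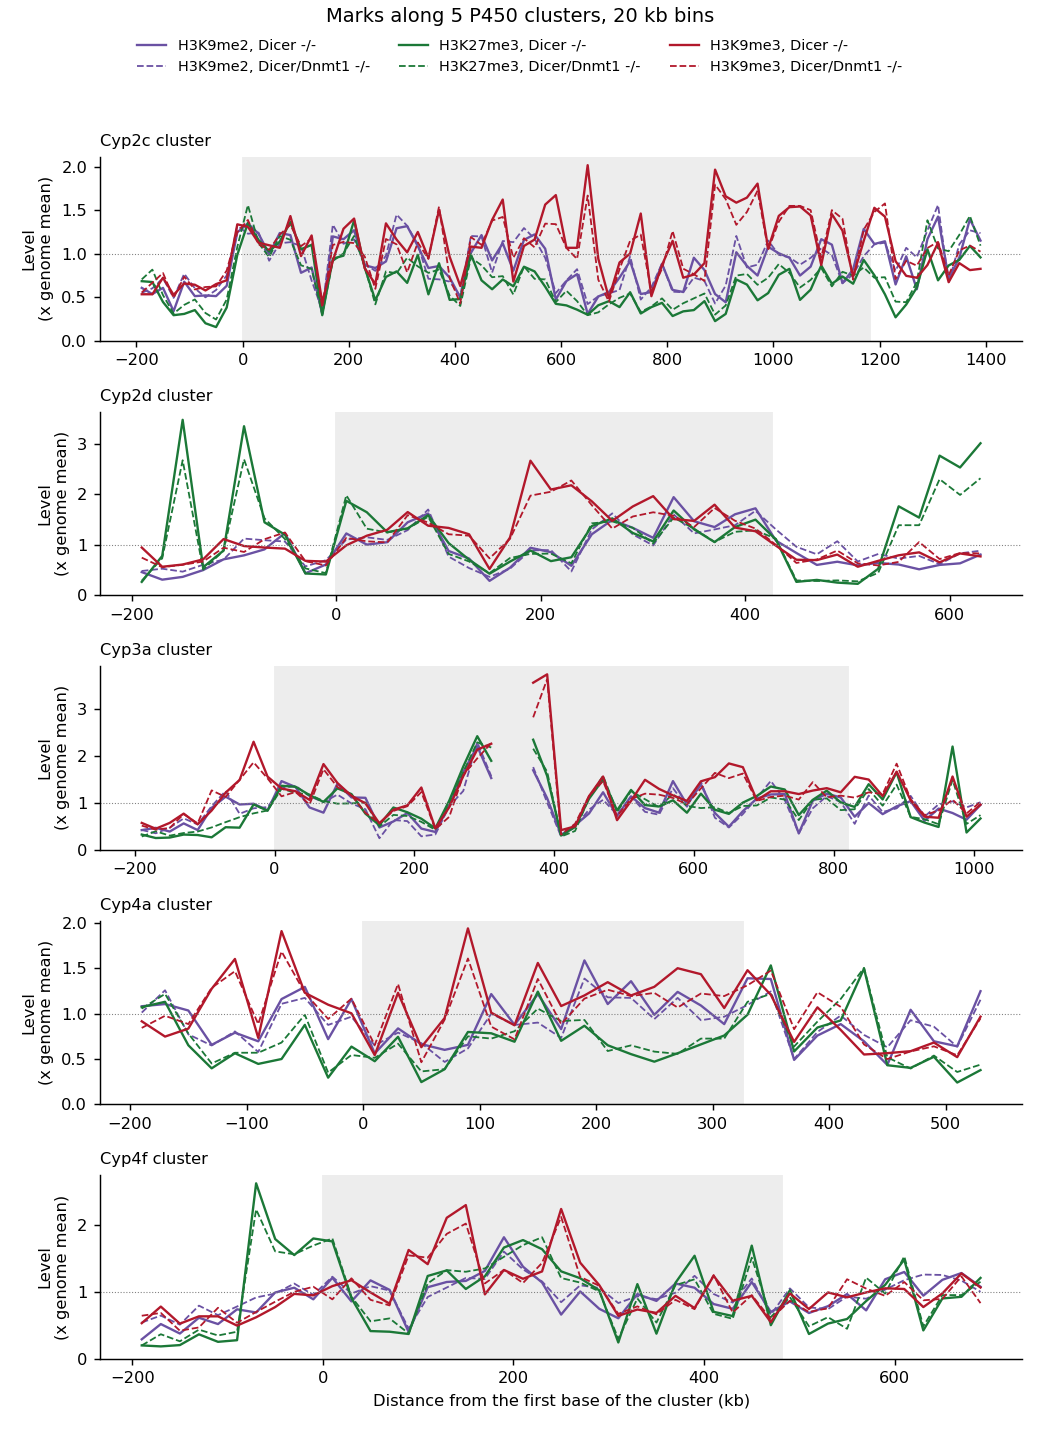
Level of the 3 marks (vertical axes, times the genome mean) in bins of 20 kb along 5 P450 clusters (shaded) and 200 kb on each side, against the distance in kb from the first base of each cluster, in Dicer -/- cells (solid lines) and Dicer/Dnmt1 -/- cells (dashed lines); the gap in the Cyp3a panel marks bins without reads. Over the Cyp2d cluster H3K9me3 was 1.51 in Dicer -/- cells, against 0.812 and 0.746 in its flanks.

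Whole clusters, with the sequence between the genes, had more H3K9me3 than their genes alone in the Cyp2c, Cyp3a and Cyp4a families. The Cyp2c cluster of 1182 kb had H3K9me3 of 1.17 in Dicer -/- cells and 1.12 in Dicer/Dnmt1 -/- cells, beside 0.993 and 0.983 over the genes. The Cyp3a cluster of 820 kb had 1.33 and 1.24, and the Cyp4a cluster of 326 kb had 1.20 and 1.09. Some flanks of these 2 clusters were not far off. The 200 kb before the Cyp3a cluster had 1.017 and 0.986, and the 200 kb after it 1.149 and 1.084. The 200 kb before the Cyp4a cluster had 1.133 and 1.135, and the 200 kb after it 0.813 and 0.898. The Cyp2d cluster of 426 kb stood out from its flanks in H3K9me2 as well. It had 1.16 and 1.11, against 0.630 and 0.731 in the 200 kb before it and 0.661 and 0.829 in the 200 kb after it. In H3K27me3 it did not stand out, with 1.198 and 1.158, against 1.277 and 1.136 before it and 1.163 and 1.012 after it. The chromosome 7 cluster with Cyp2a, Cyp2b, Cyp2f, Cyp2g, Cyp2s and Cyp2t genes, 1358 kb long with 13 P450 genes, had H3K9me3 of 1.31 and 1.23 between flanks of 0.711 and 0.674 in Dicer -/- cells. The Cyp2j cluster of 638 kb had H3K9me3 of 1.38 and 1.26.

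The Cyp4f cluster, whose enzymes hydroxylate leukotrienes and fatty acids, showed neighbours with unlike H3K27me3. Over Cyp4f14 it was 2.01 in Dicer -/- cells and 1.84 in Dicer/Dnmt1 -/- cells, and over the next gene, Cyp4f13, 0.45 and 0.57. At the other end Cyp4f39 had 1.68 and 1.66, while Cyp4f17 had 0.40 and 0.54 and Cyp4f16 0.34 and 0.63. Cyp4f40, at 1.83 and 1.75, and Cyp4f15, at 1.71 and 1.88, were again high. The cluster thus held 4 genes above and 3 below the genome mean in both genotypes. Of all genes 39.2% were above it in Dicer -/- cells and 39% in Dicer/Dnmt1 -/- cells, so with so few genes the count is not far from the background. The start of Cyp4f14, whose 300 bases hold no CG, had 3.13 and 2.12. Of these genes only Cyp4f14, Cyp4f16 and Cyp4f13 came under the rule for named genes; the others were named after their values were seen.

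Tiles with H3K9me3 at 3 times the genome mean or more in both genotypes were rare in P450 genes, as they were elsewhere. They were 3 of 1358 tiles (0.221%), beside 0.294% of all autosomal tiles, so the share is near the background. A tile in Cyp20a1, an orphan P450 that stands alone, had 4.53 in Dicer -/- cells and 3.65 in Dicer/Dnmt1 -/- cells, 6.83 kb from the gene start. The other 2 were neighbouring tiles in Cyp2c67, with 4.10 and 3.15 in the first and 3.51 and 3.51 in the second. All 3 tiles were selected for a high level in both libraries.

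Between the genotypes, P450 families changed little. Over all 96 genes the change was -0.01 for H3K9me2 (-0.03 to 0.02), -0.03 for H3K27me3 (-0.05 to -0.0025) and -0.03 for H3K9me3 (-0.06 to -0.0026). Within bins of GC content the H3K27me3 change was -0.01. The median change of all genes was above that of the P450 genes for each mark. Among all autosomal protein-coding genes whose tiles held 100 reads or more over both libraries, the median change of H3K9me2 was 0.11, that of H3K27me3 0.06 and that of H3K9me3 0.04. Over the P450 genes with as many reads the medians were 0.02, -0.0049 and -0.04. Among genes without a CpG-rich start they were 0.02, 0.0054 and -0.04 for P450 genes, beside 0.06, 0.0099 and 0.04 for all such genes. In that class the H3K27me3 medians were thus close. For all genes with a CpG-rich start the medians were 0.16, 0.14 and 0.04. The order of the P450 genes was much the same in both genotypes, with a Spearman rho across the 96 genes of 0.89 for H3K9me2, 0.97 for H3K27me3 and 0.83 for H3K9me3.

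**Figure D4:**
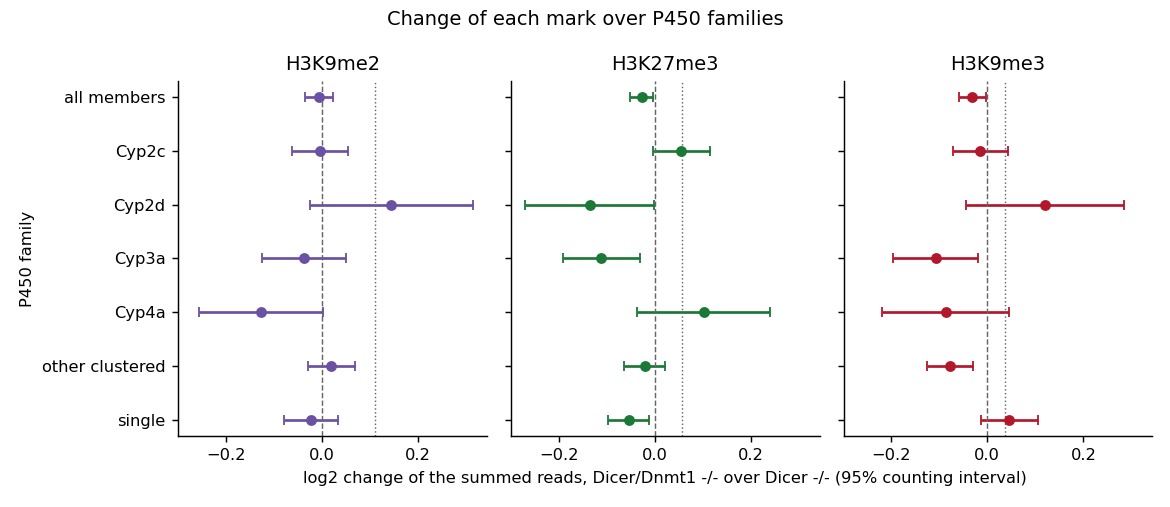
Change of each mark over all 96 P450 genes and over each family (horizontal axes, log2 of Dicer/Dnmt1 -/- over Dicer -/-), with 95% intervals for counting error; dashed lines stand at 0 and dotted lines at the median change of all genes with at least 100 reads. Cyp3a lies below 0 for H3K27me3 and for H3K9me3, both at -0.11.

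Cyp3a was lower in Dicer/Dnmt1 -/- cells for both H3K27me3 (-0.11, -0.19 to -0.03) and H3K9me3 (-0.11, -0.20 to -0.02), also with the other scalings. Of its 9 genes 6 were lower and 3 higher for H3K27me3, and 7 lower and 2 higher for H3K9me3. Among all genes with at least 100 reads 5973 of 14932 were lower for H3K27me3 and 5749 of 14010 for H3K9me3. The H3K27me3 change was -0.30 for Cyp3a16, -0.29 for Cyp3a25 and -0.27 for Cyp3a59, but 0.17 for Cyp3a11. Cyp3a11, Cyp3a25 and Cyp3a59 were named after their values were seen. For Cyp2d H3K27me3 was lower by a change of -0.14 (-0.27 to -0.0017), while H3K9me2 (0.14, -0.03 to 0.31) and H3K9me3 (0.12, -0.04 to 0.28) had intervals that hold 0. When libraries were scaled within bins of GC content the Cyp2d changes were -0.08, 0.05 and 0.05 in that order, and in tiles wholly inside a gene they were -0.25, -0.03 and 0.35. The H3K9me2 direction over Cyp2d thus depended on the tiles used. Cyp4a had -0.13 for H3K9me2 (-0.26 to 0.0026) and 0.10 for H3K27me3 (-0.04 to 0.24), and Cyp2c 0.06 for H3K27me3 (-0.0038 to 0.12), none of which excludes 0. The other clustered genes had -0.08 for H3K9me3 (-0.13 to -0.03). Genes that stand alone had -0.05 for H3K27me3 (-0.10 to -0.01), but 0.01 when libraries were scaled within bins of GC content and 0.05 as the median over the genes, so no direction can be given.

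Individual P450 genes moved in both directions, by less than 2-fold. For H3K9me2 7 of the 84 P450 genes with at least 100 reads were at least 25% higher in Dicer/Dnmt1 -/- cells, beside 17.4% of all genes, and 3 were at least 20% lower, the same fold downwards, beside 1.83%. For H3K27me3 8 of 95 were higher, beside 17.6%, and 7 lower, beside 7.88%. For H3K9me3 5 of 87 were higher, beside 5.9%, and 5 lower, beside 3.77%, so these shares are near the background. Among genes without a CpG-rich start, H3K9me2 was higher by that fold over 7 of 78 P450 genes and lower over 3. Of all 7060 such genes it was higher over 1004 and lower over 205. H3K27me3 was higher over 7 of 87 and lower over 5, beside 849 and 674 of all 8093. H3K9me3 was higher over 3 of 81 and lower over 5, beside 493 and 284 of all 7063. No P450 gene with enough reads was 2-fold apart for any mark, beside 0.095% of genes for H3K9me2, 0.261% for H3K27me3 and 0.00714% for H3K9me3. Counted in either direction, 10, 15 and 10 P450 genes were at least 25% higher or 20% lower for H3K9me2, H3K27me3 and H3K9me3, and with at least 300 reads 3, 6 and 4 were. No share of all genes was taken at 300 reads, so those counts are not compared with the background. Scaling within bins of GC content was chosen for the counts with at least 100 reads after seeing the data. It gave 4 P450 genes higher for H3K9me2, beside 13.2% of all genes, and 2 lower, beside 2.36%. For H3K27me3 it gave 9 higher, beside 19.5%, and 4 lower, beside 5.27%, and for H3K9me3 5 higher, beside 4.4%, and 4 lower, beside 4.55%.

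Counting error bounds these changes. For H3K9me2 the interval lay above 0 for 4 of 84 P450 genes, beside 19.9% of all genes, and below 0 for 4, beside 3.43%. For H3K27me3 it lay above 0 for 7 of 95, beside 20.5%, and below 0 for 14, beside 11.7%. For H3K9me3 it lay above 0 for 5 of 87, beside 8.22%, and below 0 for 9, beside 3.4%. The sign of none of these changes turned with either of the other scalings or within bins of GC content, but sizes did move. Of the 21 H3K27me3 changes, 3 differed by more than 1.5 times within bins of GC content, those of Cyp26b1, Cyp26c1 and Cyp46a1, all closer to 0, and none of the 8 for H3K9me2 or the 14 for H3K9me3 did. Among genes without a CpG-rich start, the H3K9me2 interval lay above 0 for 4 of 78 P450 genes and below 0 for 4. Of all 7060 such genes it did for 940 and 328. For H3K27me3 the counts were 6 and 10 of 87, beside 999 and 925 of all 8093. For H3K9me3 they were 3 and 8 of 81, beside 572 and 260 of all 7063.

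Among P450 genes with at least 100 reads of H3K9me2 over both libraries, Cyp2d26 had 1.13 in Dicer -/- cells and 1.71 in Dicer/Dnmt1 -/- cells (the highest change, at 0.59, 0.04 to 1.16), and Cyp2d37-ps 1.62 and 2.20 (change 0.45, with an interval that holds 0). Cyp2f2, a lung enzyme known for activating naphthalene, had a change of 0.44 (0.04 to 0.84). The lowest changes were over Cyp3a16, at 1.20 and 0.91 (-0.41, -0.66 to -0.15), Cyp2b19, a gene of skin, at 1.74 and 1.36 (-0.35), and Cyp7a1. Among genes with at least 100 reads, Cyp3a41b, Cyp3a41a and Cyp2s1 had the least H3K9me2 in Dicer -/- cells. Cyp2s1, an enzyme of epithelia, had 0.61 there and 0.78 in Dicer/Dnmt1 -/- cells.

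For H3K27me3, 2 of the 3 highest changes were over genes with little of the mark. Cyp4f16 had 0.34 in Dicer -/- cells and 0.63 in Dicer/Dnmt1 -/- cells (change 0.91, 0.42 to 1.40), and Cyp20a1 0.37 and 0.53 (change 0.53, 0.23 to 0.83). These 2 and Cyp3a41a had the least H3K27me3 in Dicer -/- cells among genes with at least 100 reads. Cyp2w1, a gene of the fetal gut, had 0.98 and 1.41 (change 0.53, 0.01 to 1.06). The lowest changes were over Cyp2d12, at 1.47 and 1.02 (-0.53, -1.06 to -0.01), Cyp1b1, and Cyp2b23 (-0.41).

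For H3K9me3 the Cyp2d family held changes in opposite directions. Cyp2d40 had 1.17 in Dicer -/- cells and 1.87 in Dicer/Dnmt1 -/- cells (change 0.68, 0.14 to 1.22), and Cyp2d26 had a change of 0.50 (-0.09 to 1.10). Cyp2d12, with the most of the mark, had -0.44 (-0.86 to -0.02). Cyp2u1, a fatty acid hydroxylase, had 0.75 and 1.03 (change 0.46, 0.05 to 0.89). In the Cyp2j cluster the interval lay below 0 for 4 of 8 genes, beside 3.4% of all genes and 9 of 87 P450 genes. They were Cyp2j5, and Cyp2j8 at 1.28 and 1.11, Cyp2j12 at 1.32 and 1.13 and Cyp2j13 at 1.61 and 1.41. The cluster and the last 3 genes were named after their values were seen. Among genes with at least 100 reads the least H3K9me3 was over Cyp3a41b, Cyp3a41a and Cyp4f13, the last at 0.65 and 0.64.

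**Figure D5:**
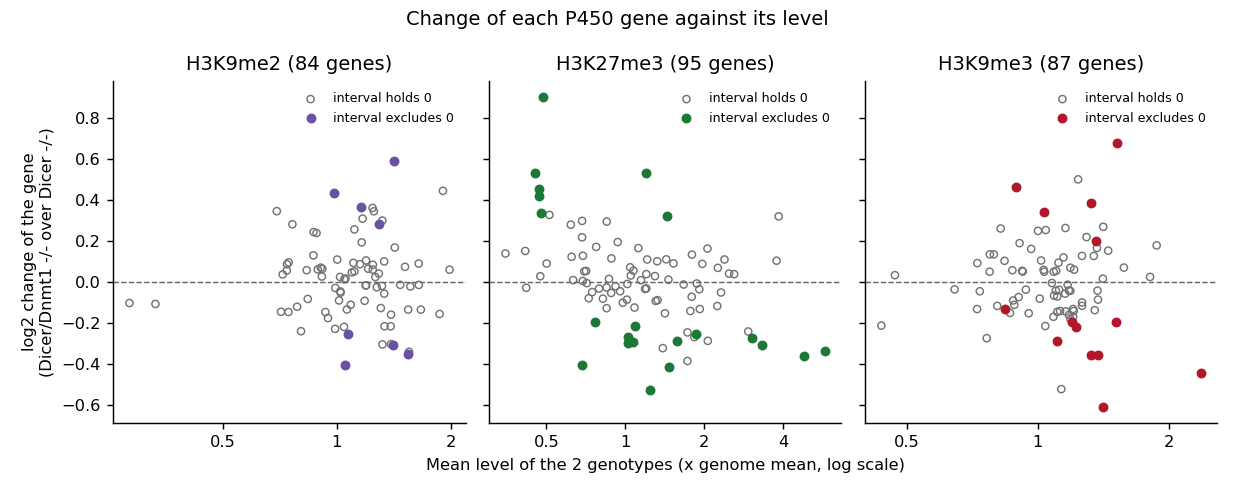
Change of each P450 gene with at least 100 reads (vertical axis, log2 of Dicer/Dnmt1 -/- over Dicer -/-) against the mean of its levels in both genotypes (horizontal axes, times the genome mean, log scale), for H3K9me2 (84 genes), H3K27me3 (95 genes) and H3K9me3 (87 genes); filled points have 95% counting intervals that exclude 0. In the H3K27me3 panel 19 of 24 genes under 0.75 lie above 0.

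Genes with little H3K27me3 were mostly higher in Dicer/Dnmt1 -/- cells, as among all genes, while genes with much of it went both ways. Of the 24 P450 genes with a mean level under 0.75, 19 were higher in Dicer/Dnmt1 -/- cells, beside 86.5% of all such genes. Of the 15 with a mean level of at least 2, 8 were lower, beside 79.1%. Of the 19, Cyp2c68, Cyp2j7-ps and Cyp4a12a, with changes of 0.03, 0.01 and 0.01, were lower within bins of GC content. Of the 8, Cyp1a1, with a change of -0.05, was higher there. Of the 12 P450 genes with H3K27me3 at the start, 9 were lower at the start, beside 78% of all marked genes. Within bins of GC content, chosen for the starts after seeing the data, 8 were lower, beside 67.7%, with Cyp24a1 at 0.07 in place of -0.19. With total reads, the intervals for Cyp26a1, Cyp46a1 and Cyp27a1 excluded 0. The 3 that were not lower were Cyp17a1, Cyp8b1 and Cyp1a2. In Dicer -/- cells 17 of 96 P450 genes had an H3K27me3 level of at least 2 over the gene, beside 12.9% of all genes.

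Most of the genes that hand electrons to P450 enzymes had little H3K27me3. None of the 5 electron partners (Por, Cyb5, Cyb5r3, Fdx1 and Fdxr) had H3K27me3 at the start, beside 15.1% of all genes, so with 5 genes the count is near the background. Their median level was 0.384 in Dicer -/- cells and 0.488 in Dicer/Dnmt1 -/- cells, but Fdxr had 1.69 and 1.26 over the gene. Cyp51, the sterol demethylase that every cell needs for cholesterol, had 0.308 and 0.336 and is outside the symbol rule. Of the other P450 genes outside it, Ptgis, the prostacyclin synthase, had 4.55 and 3.06 at its start, and Tbxas1, the thromboxane synthase, had 1.89 and 1.94 over the gene. Of 12 receptors and factors that control P450 genes (Ahr, Arnt, Nr1i2, Nr1i3, Rxra, Hnf4a, Nr1h4, Nr5a1, Nr5a2, Nr0b2, Ppara and Vdr), 3 (25%) had H3K27me3 at the start in both genotypes, beside 15.1% of all genes. The median level over the 12 genes was 1.58 in Dicer -/- cells. At the start the vitamin D receptor gene Vdr had 3.08 and 3.06, Ppara, whose receptor induces the Cyp4a genes, 4.01 and 2.18, and the liver factor gene Hnf4a 2.15 and 2.99.

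Neighbouring genes bear on some values. Tiles of 5 P450 genes also overlap another protein-coding gene: Cyp39a1, Cyp24a1, Cyp2t4 with Egln2, Cyp4v3 with Klkb1, and Cyp4f18 with Zfp961. The other 91 share no tile with another autosomal protein-coding gene. Other kinds of gene were not looked at. Cyp2c44 and Cyp3a13 lie away from the clusters of their families and are counted with them by name. H3K9me2 over Cyp3a13 was 1.17 in Dicer -/- cells and 1.42 in Dicer/Dnmt1 -/- cells, against 1.02 and 0.998 for the family; it was named after its values were seen.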

How the data were processed

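H3K9me2, H3K27me3 and H3K9me3 ChIP-seq libraries, 1 for each mark in Dicer -/- and Dicer/Dnmt1 -/- ESCs, were read from the deposited table. By the methods the authors used Trim Galore for trimming and Bowtie2 for mapping to NCBIM37, kept no read with MAPQ under 20, and counted reads per genome tile. The deposited values are log2 of observed over expected reads per tile; the tiles of the table are 2 kb, where the methods state 1 kb. Of 25 columns of values 6 could be mapped to a labelled sample and 19 were not used.

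Read counts per tile were recovered from the spacing of the values, giving for Dicer -/- and Dicer/Dnmt1 -/- cells 16834940 and 20503709 reads (H3K9me2), 27162045 and 21280804 (H3K27me3), and 18155478 and 18931477 (H3K9me3). That is a mean of 12.7 and 15.4, 20.5 and 16.0, and 13.7 and 14.3 reads per tile, so single tiles are imprecise and genes whose tiles held fewer than 100 reads over both libraries of a mark got no call on their change. Gene bounds came from the GENCODE annotation on NCBIM37, whose 22 chromosome lengths equal those of the table, and the 300-base sequences from the NCBIM37 genome. Tiles without reads in all 6 libraries (4 in P450 genes) were left out. Libraries were scaled by total reads. Levels have exact Poisson and changes exact binomial intervals. They were run on simulated reads with counting error only, which cannot show how well they hold for these libraries. No test between genotypes was made.

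Named genes were the 3 highest, 3 lowest, 3 most raised and 3 most lowered P450 genes for each mark, genes with H3K27me3 at the start, role lists, partner, regulator and marker genes, and Dnmt1 and Dicer1; others are named for their position, as genes close to a threshold, or after their values were seen. The members and lists were chosen with earlier results of these data known. Alternatives were other scalings (median log2 ratio, trimmed mean, 50 bins of GC content), tiles wholly inside a gene, medians over genes, all tiles, other read minimums and other start rules. Python 3.11.15, numpy 2.4.6, pandas 2.3.3, scipy 1.17.1 and matplotlib 3.10.9 were used.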

Additional observations from a re-analysis of the deposited data

How the results depend on the processing

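No paired analysis was possible because there was 1 library per mark and genotype. Of 123 recomputed changes over families 117 stayed within the counting interval of the reported value, as did all 21 over all P450 genes, where H3K27me3 (-0.03) was -0.01 within bins of GC content. H3K27me3 over genes that stand alone (-0.05) reversed, with 0.01 in bins of GC content and 0.05 as the median over genes; the cause was not tested. As medians over genes the change was 0.05 for H3K9me3 over Cyp2c and 0.07 for H3K9me2 over genes that stand alone. In tiles wholly inside a gene Cyp2d had -0.03 for H3K9me2, 0.35 for H3K9me3 and -0.25 for H3K27me3, from fewer tiles. Of 174 recomputed levels over families 43 left their counting interval, 20 of them as medians over genes; in tiles wholly inside a gene Cyp2d had H3K9me3 of 1.10 in Dicer -/- cells, from 1.39. Levels over all P450 genes left their narrow intervals in 12 of 30. As medians over genes they were 1.12 for H3K9me2 in Dicer/Dnmt1 -/- cells, 1.13 for H3K27me3 in Dicer -/- cells, and 1.11 and 1.09 for H3K9me3 in Dicer -/- cells and Dicer/Dnmt1 -/- cells. In tiles wholly inside a gene H3K27me3 was 1.05 and 1.04. Of the alternatives chosen after seeing the data, totals without the 0.1% of tiles with most reads gave 1.11 and 1.09 for H3K27me3 and 1.13 and 1.11 for H3K9me3, and leaving out the 5 genes that share tiles gave 1.07 and 1.05 for H3K27me3. Genes called on their change with at least 300 reads were 3 for H3K9me2, 6 for H3K27me3 and 4 for H3K9me3, since fewer genes had as many reads; within bins of GC content, also chosen after seeing the data, 6 were called for H3K9me2. At 3 times the genome mean 6 starts passed in place of 12; with 3 tiles around the start 11 did. Dividing by totals shows shares of reads only, so a change of a mark over the whole genome would not be seen. Depth limits the Cyp2d genes, with 2 to 6 tiles each. Reads of low mapping quality were discarded, and how much this lowers the levels of near copies such as Cyp3a41a and Cyp3a41b was not tested.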

Other observations

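In the Cyp3a cluster, a stretch of 20 kb bins without tiles in use lies between Cyp3a41b and Cyp3a41a, and all 3 marks were high beside it. In Dicer -/- cells the bin before it, centred 310 kb from the first base of the cluster, had H3K9me2 of 1.52, H3K27me3 of 1.89 and H3K9me3 of 2.25. The bin after it, at 370 kb, had 1.69, 2.34 and 3.55, and in Dicer/Dnmt1 -/- cells 1.76, 2.15 and 2.82. In the next bin, at 390 kb, H3K9me2 was 1.10, H3K27me3 1.57 and H3K9me3 3.73 in Dicer -/- cells, and at 410 kb H3K9me3 was 0.417.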
